A study of Mus musculus with 9 samples.

Results

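Macrophages given LPS together with BHB were compared with control macrophages across all genes, and many of the changes were set against the group given LPS alone. Where no LPS value is given, a change from control may also be present with LPS alone. The cells were bone marrow-derived macrophages of wild-type Balb/c mice aged 6 weeks, and the groups were control, LPS, and LPS plus BHB, with 3 libraries each. The comparison used the 3 LPS plus BHB and the 3 control libraries, 6 of 9 in all, and the LPS libraries served to mark changes that LPS alone did not give. The sources used here give no dose, no time and no growth factor for raising the cells, and no group had BHB without LPS. Every difference from control is therefore that of the joint treatment, and the labels do not say whether the 3 libraries of a group came from separate mice or cultures, so p-values measure the spread between these libraries, which may be technical. Of 46095 symbols in the count table, 24589 had at least 1 count and 14026 passed the filter on low counts and were tested.

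Macrophages are phagocytes that differentiate from marrow progenitors under colony-stimulating factor 1 and detect microbes through Toll-like receptors. LPS, a component of the outer membrane of Gram-negative bacteria, binds TLR4 with CD14 and MD-2, and signalling through MyD88 and TRIF then switches on cytokine, chemokine and interferon genes while glycolysis rises and many lineage genes fall. BHB, β-hydroxybutyrate, is the main circulating ketone body of fasting, known as a mitochondrial fuel, a ligand of the receptor HCAR2 and, at high concentration, an inhibitor of class I histone deacetylases.

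The libraries held 29633411 to 32798920 counts. Values per library are in CPM, each count divided by its library's total after scaling by TMM factors. These factors were 1.14 to 1.15 in control and 0.913 to 0.921 in LPS plus BHB. Control replicates 2 and 3 stood apart from control replicate 1 in genes that LPS induces: Il12b, a subunit of IL-12 and IL-23, had 0 counts in control 1 against 223 and 213 in control 2 and 3. All 12 macrophage-defining markers (Csf1r, Cd68 and others) were detected, with summed levels of 20840 to 24211 CPM in control and 17098 to 17594 CPM in LPS plus BHB. Of markers of other cells, 5 of 13 neutrophil, 6 of 11 dendritic cell, 2 of 12 lymphocyte, 2 of 9 mast cell, 3 of 11 erythroid and megakaryocyte and 10 of 13 stromal and endothelial genes passed the filter. Cd3e had 1 count and Trac 0 counts in the 9 libraries together. A symbol with 0 counts throughout may also be one to which no reads were assigned, which these counts cannot show. In these bulk samples fewer cells of a type and less RNA per cell cannot be told apart.

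Most of the transcriptome differed between LPS plus BHB and control. In edgeR's quasi-likelihood fit (Benjamini-Hochberg adjusted p under 0.05), 5328 genes were higher (38.0% of those tested) and 5662 lower (40.4%), of which 2546 and 3279 differed at least 2-fold. With libraries scaled by their totals alone the split was 3922 higher and 7366 lower, and the median of all genes moved by -0.33 on the log2 scale. LPS alone against the same controls gave 5390 higher (38.4%) and 5801 lower (41.4%), and LPS plus BHB against LPS gave 3697 higher (26.4%) and 3418 lower (24.4%). Both comparisons against control use the same 3 control libraries, so their fold changes are not independent. The counts of gene lists given further on are read against these shares of all tested genes.

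Among named genes averaging 5 CPM or more over the 6 libraries, large rises against control were those of Has1, a hyaluronan synthase, Cdc42ep1, an effector of the GTPase CDC42, Olr1, a scavenger receptor for oxidised LDL, Gfi1, a transcriptional repressor of haematopoiesis, Hdc, the histamine-forming enzyme, Heatr9, and Il23a, a subunit of IL-23. Has1 had 3 counts over the controls, and its ratio of LPS plus BHB to control was 570.3 (exact 95% interval 195 to 2769). Olr1 had 0.0563, 0.161 and 0.359 CPM in control, 29.5, 28.0 and 33.0 in LPS and 74.7, 68.2 and 99.7 in LPS plus BHB, a log2 fold change of 8.69 (SE 0.30) against control, adjusted p = 4.2e-09. Every LPS plus BHB library of Olr1 lay above every control library. With 2, 6 and 13 counts in control, Olr1 passed the filter on low counts through the treated groups only, which favours such a separation. Il23a had a log2 fold change of 8.28 (SE 0.64). Hdc rose from 0.0921 ± 0.0440 CPM in control (mean ± SD, n = 3 here and below) to 35.2 ± 3.97 CPM, with 14.7 ± 1.68 CPM in LPS. Gfi1 had 58.6 ± 0.974 CPM in LPS and 60.2 ± 13.2 CPM in LPS plus BHB and was not called between them. Hdc is also a mast cell and basophil gene. Of the 9 genes on that list, Hdc and Kit were tested and both rose, Kit from 0.533 ± 0.244 to 1.67 ± 0.215 CPM. Over the 9 libraries the other 7 had few counts: Gata2 had 73, Mcpt8 3, Cpa3 1, and Mcpt4, Tpsb2, Fcer1a and Ms4a2 0.

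The deepest falls under the same limit included surface receptors and transporters. All genes named in this paragraph also fell with LPS alone, and none was called between LPS plus BHB and LPS. The log2 fold changes in LPS against control were -7.12 for Cd300lb, -7.75 for Abcd2, -6.77 for Lpar5 and -7.40 for Slco2b1. Cd300lb, an activating receptor, fell from 459 ± 16.2 CPM to 3.63 ± 0.436 CPM, a log2 fold change of -6.98 (SE 0.08), adjusted p = 1.99e-23. Abcd2, a peroxisomal fatty acid transporter, fell from 77.2 ± 5.10 to 0.612 ± 0.192 CPM. The lysophosphatidic acid receptor gene Lpar5 and the organic anion transporter gene Slco2b1 had log2 fold changes of -6.73 and -6.69. Nxpe5 had 3 counts in the LPS plus BHB libraries together and 3447 in control, and the ratio of control to LPS plus BHB was 912 (exact 95% interval 312 to 4425, which covers counting error only). Npas4, an activity-dependent transcription factor, had 2176 counts in control and 2 in LPS plus BHB, a ratio of 864 (239 to 7135).

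**Figure D1:**
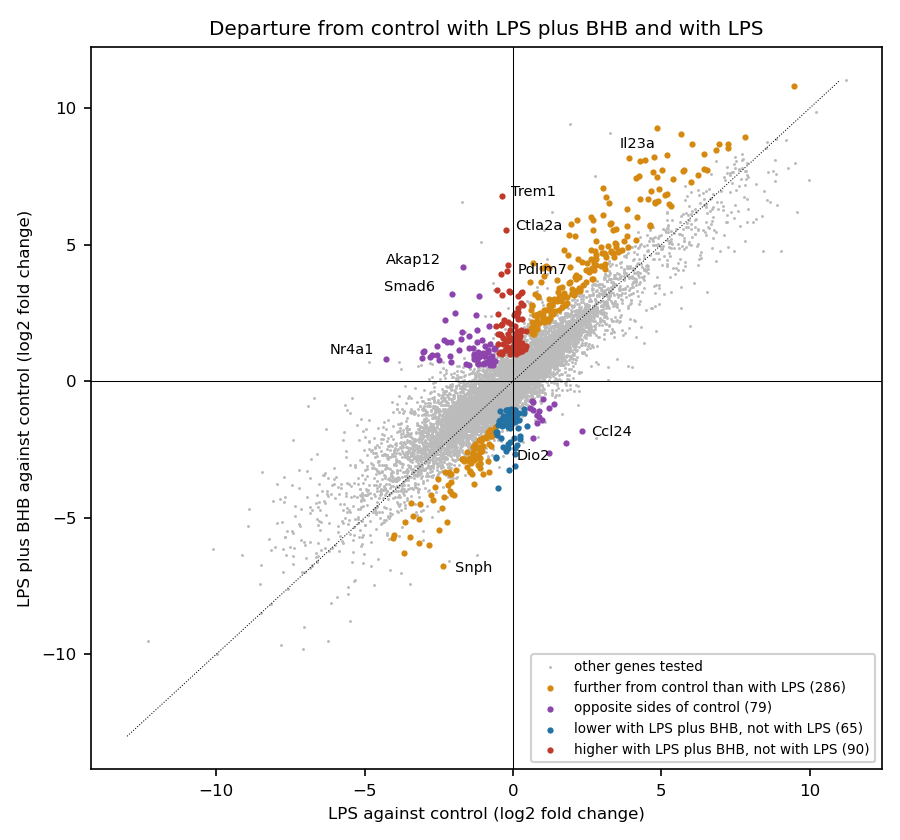
Log2 fold change of each tested gene in LPS against control (x) and in LPS plus BHB against control (y), 3 libraries a group, sharing the control libraries. Coloured points are the 90 genes higher and 65 lower with LPS plus BHB and not with LPS alone, which lie along x = 0 by their rule, the 79 on opposite sides of control, and the 286 further from control than LPS alone.

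The question of what differed from control with LPS plus BHB and not with LPS alone was put to each gene. A gene was counted as higher only with LPS plus BHB where it was called and at least 2-fold higher than control, called in the same direction against LPS, and neither called nor 1.5-fold away from control with LPS alone. Of the tested genes, 90 met this rule upward (0.642%) and 65 downward (0.463%). With libraries scaled by their totals alone 69 met it upward and 95 downward, so which direction held more genes turned with the scaling. Their median log2 fold changes against control, fixed in sign by the rule, were 1.58 and -1.49. Of the 90 genes, 66 carry a gene name and 48 reached a mean of 5 CPM in LPS plus BHB. The 65 lower genes included 46 named ones, and 17 of the 65 reached a mean of 5 CPM in control.

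Trem1, Ctla2a and Pdlim7 were the 3 highest rises among the 45 named genes of this set with 5 CPM or more in LPS plus BHB, and the 250 bases before their start sites are shown, with those of Egln3, a hypoxia target chosen after its values were seen, because these genes moved with LPS plus BHB alone. Sequences are RefSeq's on GRCm38.p6, 5′ to 3′ on the gene's strand, and capitals mark matches to the searched motifs.
Trem1, chr17:48232489-48232738, plus strand: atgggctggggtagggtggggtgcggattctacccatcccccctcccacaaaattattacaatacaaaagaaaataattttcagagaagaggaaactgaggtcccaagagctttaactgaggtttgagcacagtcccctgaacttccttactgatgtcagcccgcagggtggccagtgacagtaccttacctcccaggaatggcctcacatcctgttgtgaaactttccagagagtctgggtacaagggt
Ctla2a, chr13:60936626-60936875, minus strand: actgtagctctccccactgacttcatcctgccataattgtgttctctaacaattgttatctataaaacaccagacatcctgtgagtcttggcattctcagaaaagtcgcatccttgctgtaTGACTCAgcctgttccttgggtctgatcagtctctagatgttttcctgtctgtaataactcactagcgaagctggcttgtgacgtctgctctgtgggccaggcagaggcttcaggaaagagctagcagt
Pdlim7, chr13:55513447-55513696, minus strand: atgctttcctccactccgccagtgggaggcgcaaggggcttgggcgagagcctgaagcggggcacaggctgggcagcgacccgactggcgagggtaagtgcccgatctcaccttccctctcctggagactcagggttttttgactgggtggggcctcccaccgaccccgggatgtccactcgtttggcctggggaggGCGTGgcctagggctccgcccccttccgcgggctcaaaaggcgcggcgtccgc
Egln3, chr12:54203875-54204124, minus strand: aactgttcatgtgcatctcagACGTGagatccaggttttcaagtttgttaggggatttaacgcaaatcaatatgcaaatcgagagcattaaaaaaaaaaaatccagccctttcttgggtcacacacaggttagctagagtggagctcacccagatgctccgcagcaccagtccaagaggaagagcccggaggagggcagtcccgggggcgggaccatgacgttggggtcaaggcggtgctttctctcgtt
The motifs searched on both strands were TGACGTCA, the cyclic AMP response element; TGACTCA or its complement TGAGTCA, the AP-1 element; and ACGTG or GCGTG, the core of hypoxia response elements, and none of them contains another. The Ctla2a promoter holds TGACTCA 129 bases before the start, that of Pdlim7 holds GCGTG 53 bases before it and that of Egln3 holds ACGTG 229 bases before it, while these letters are not in the Trem1 window. The promoter of Vegfa, a hypoxia and cyclic AMP target also chosen after its values were seen, was searched too and held none of the motifs. Of 58 genes of the set with a promoter in the RefSeq table, 7 (12.07%) held TGACTCA or TGAGTCA, against 3.158% of the 9752 promoters of tested genes and 4.429% of all 27025 promoters. ACGTG or GCGTG stood in 29 of the 58 with the tested genes at 56.31%, and TGACGTCA stood in 1 (1.724%) against 2.738%. A match describes the letters only.

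Trem1 encodes a receptor of myeloid cells that signals through DAP12 and amplifies the response to microbial products. Trem1 (GRCm38 chromosome 17, 48232768 to 48246924) stood at 0, 0.107 and 0.0276 CPM in control and 0, 0.0350 and 0.0707 CPM in LPS. In LPS plus BHB it reached 5.80, 4.79 and 5.75 CPM, above every other library. The log2 fold change against control was 6.78 (SE 0.47), adjusted p = 2.96e-11. Trem1 had 5 counts over the control libraries and 3 over the LPS libraries. It therefore passed the filter on low counts only through LPS plus BHB, which partly builds in the separation and the p-value. The lack of a change with LPS alone rests on these few counts. Against control replicate 1, where Trem1 had 0 counts, it was at least 64.5-fold higher, with control 1 set at a floor of 3 counts.

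Ctla2a, which encodes a small inhibitor of cathepsin L-like proteases, had the next rise. Its levels were 2.14, 1.95 and 1.68 CPM in control, 1.58, 1.47 and 1.91 in LPS and 91.4, 78.2 and 98.3 in LPS plus BHB, a log2 fold change of 5.53 (SE 0.11) against control. Its value is uncertain, because 37.3% of its 31-base stretches occur in other genes and 16.3% of its exons overlap Gm49391, so reads could be split between copies. Its paralog Ctla2b shares 76.1% and lay on opposite sides of control in the treated groups, with log2 fold changes of 2.25 in LPS plus BHB and -2.28 in LPS. Pdlim7, a PDZ and LIM domain protein of the actin cytoskeleton, had 3.58, 2.94 and 4.14 CPM in control, 3.23, 3.29 and 2.79 in LPS and 57.2, 55.3 and 63.2 in LPS plus BHB. The Pdlim7 groups of control and LPS overlapped, and those of LPS plus BHB lay above both.

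Cd24a encodes a glycosylated surface protein that binds Siglec receptors. It had 8.48, 9.40 and 9.24 CPM in control, 8.51, 8.74 and 7.81 in LPS and 94.9, 83.6 and 83.8 in LPS plus BHB, with a log2 fold change of 3.27 (SE 0.08) and adjusted p = 2.69e-19. F3, tissue factor, which starts the extrinsic clotting cascade, rose from 1.30, 1.39 and 1.74 CPM to 11.97, 9.59 and 19.7 CPM, while LPS alone gave 1.38, 1.85 and 2.12 CPM. Egln3 encodes a prolyl hydroxylase that marks HIF-α subunits for destruction and is itself a HIF target. Egln3 stood at 1.80, 1.74 and 1.13 CPM in control, 2.67, 1.89 and 1.17 in LPS and 15.8, 15.2 and 14.2 in LPS plus BHB, log2 fold change 3.27 (SE 0.21). In all 3 genes the control and LPS libraries overlapped and the LPS plus BHB libraries lay above both.

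The rest of the 12 highest named rises at that level included enzymes and regulators of signalling and of the actin cytoskeleton. Adcy6, an adenylyl cyclase that makes cyclic AMP, had 3.41, 3.11 and 2.48 CPM in control, 3.89, 3.43 and 3.43 in LPS and 19.97, 21.3 and 24.0 in LPS plus BHB. Camk2a, a calcium/calmodulin-dependent kinase, had a log2 fold change of 2.70 (SE 0.24) against control, Rab11fip4, a partner of the recycling endosome GTPase RAB11, one of 3.94 (SE 0.25), and Antxr1, an anthrax toxin receptor that binds collagen, one of 2.52 (SE 0.16). Lrrc16a, which encodes a regulator of actin capping protein, had a mean of 5.81 ± 0.516 CPM in control, 5.28 ± 0.289 in LPS and 57.6 ± 6.86 in LPS plus BHB. Stat4, the transcription factor downstream of IL-12 and interferon receptors, rose by 2.28 (SE 0.25), with 26.7% of its exons overlapping Gm28177. Ifnar2, a subunit of the type I interferon receptor, was among the abundant genes of the set: it had 264, 281 and 253 CPM in control, 287, 276 and 264 in LPS and 661, 659.9 and 726 in LPS plus BHB, a log2 fold change of 1.36 (SE 0.05).

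**Figure D2:**
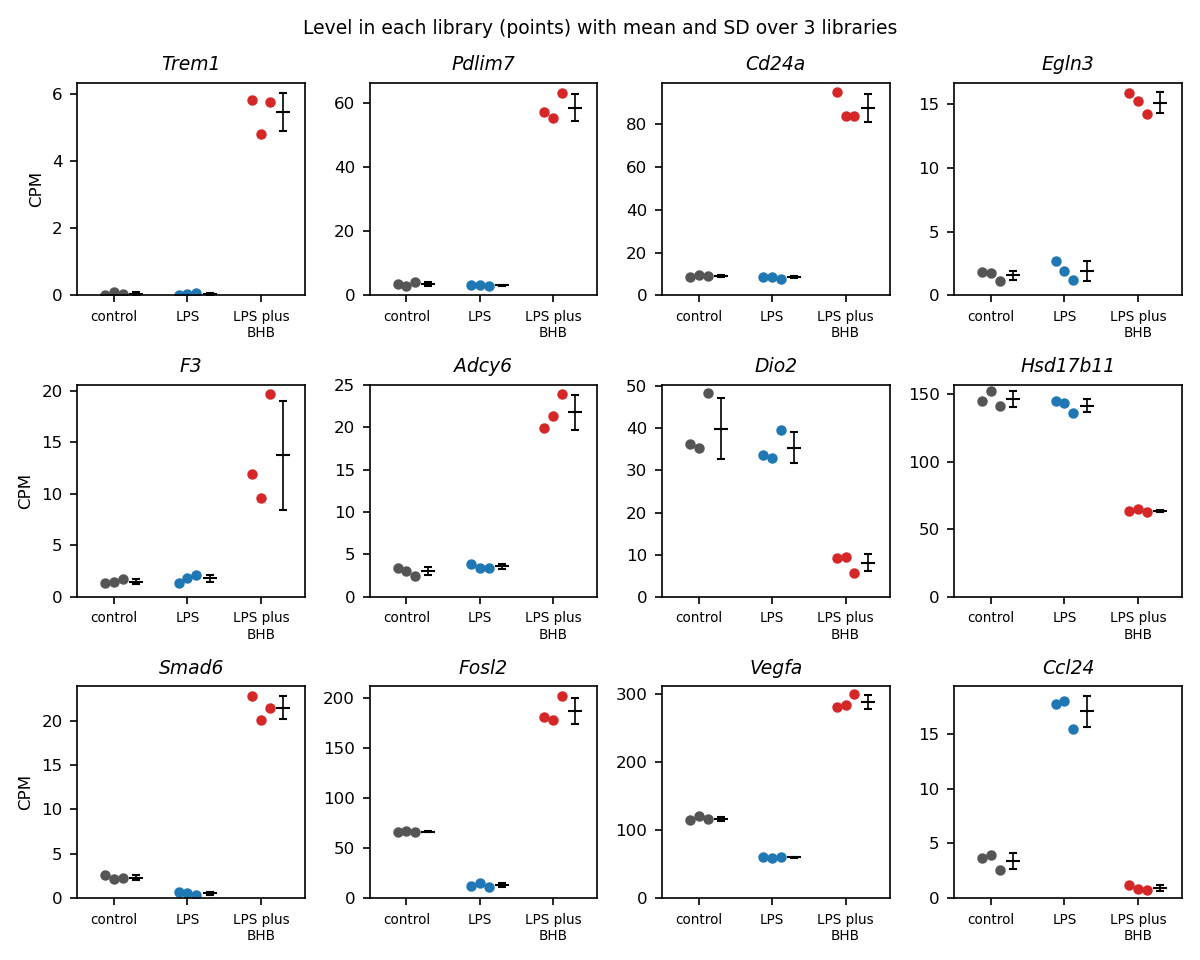
CPM in each library (points) with the mean and SD (bars) of control, LPS and LPS plus BHB, n = 3 each, for 12 genes that differed from control with LPS plus BHB and not, or the other way, with LPS alone. Trem1, Pdlim7, Cd24a, Egln3, F3 and Adcy6 were high in LPS plus BHB only, Dio2 and Hsd17b11 low in LPS plus BHB only, Smad6, Fosl2 and Vegfa below control in LPS and above it in LPS plus BHB, and Ccl24 the reverse.

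Fewer genes of at least 5 CPM were lower with LPS plus BHB alone, 17 against 48 higher ones. Dio2 encodes the deiodinase that activates thyroid hormone, and had 36.3, 35.2 and 48.3 CPM in control, 33.5, 33.0 and 39.6 in LPS and 9.26, 9.45 and 5.72 in LPS plus BHB. Its groups of control and LPS overlapped, the LPS plus BHB libraries lay below both, and the log2 fold change was -2.29 (SE 0.20), adjusted p = 6.39e-06. Hsd17b11, a dehydrogenase of lipid droplets, had 145, 153 and 141 CPM in control, 145, 144 and 136 in LPS and 63.5, 64.7 and 63.1 in LPS plus BHB. Acsl3, an acyl-CoA synthetase of lipid droplets and the endoplasmic reticulum, fell by 1.12 (SE 0.11) on the log2 scale. The other named falls were Dnmt3aos, Adgre4, an adhesion receptor of myeloid cells, Thap6, Scfd2, Cpeb1, a regulator of mRNA polyadenylation, Amz1, Ptrhd1, Rbmx, a splicing factor, and Mospd1. Their log2 fold changes ran from -2.43 for Dnmt3aos to -1.07 for Mospd1. Thap6, Ptrhd1 and Mospd1 share exons or sequence with other genes and are uncertain.

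In 88 of the 90 higher and 64 of the 65 lower genes the LPS plus BHB and control libraries did not overlap, as in 80.2% of all tested genes, and the rule nearly fixes this. With control replicate 1 as the only control, 63 of the 90 and 44 of the 65 met the same rule.

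Another 79 genes (0.563%) were called on opposite sides of control in the treated groups, each at least 1.5-fold away and with LPS plus BHB called against LPS. Of these, 63 were above control with LPS plus BHB and below it with LPS, with medians of 0.99 and -1.21, and 16 the reverse, with medians of -1.15 and 0.88. Smad6, an inhibitor of BMP and TGF-β receptor signalling, had 2.62, 2.17 and 2.23 CPM in control, 0.725, 0.595 and 0.354 in LPS and 22.8, 20.1 and 21.5 in LPS plus BHB. The 3 groups of Smad6 did not overlap, and LPS plus BHB lay 5.25 (SE 0.18) above LPS on the log2 scale. Akap12, a scaffold of protein kinase A, had means of 0.303 ± 0.0322 CPM in control, 0.0899 ± 0.0835 in LPS and 5.55 ± 1.98 in LPS plus BHB. Fosl2, an AP-1 subunit, had 65.9, 66.8 and 66.3 CPM in control, 12.7, 15.1 and 11.5 in LPS and 181, 178 and 202 in LPS plus BHB, again with no overlap.

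Vegfa, the vascular growth factor induced by hypoxia and by cyclic AMP, had 115, 120.5 and 117 CPM in control, 60.7, 59.6 and 61.4 in LPS and 281, 285 and 300.3 in LPS plus BHB. Its log2 fold change was 1.30 (SE 0.04) in LPS plus BHB and -0.95 (SE 0.05) in LPS. Nr4a1, an orphan nuclear receptor of the immediate early class, had 10.8, 9.82 and 9.77 CPM in control, 0.692, 0.175 and 0.672 in LPS and 14.8, 12.8 and 25.3 in LPS plus BHB. Its rise against control, 0.80 (SE 0.27), had an adjusted p of 0.0213, and the call was lost with control replicate 1 alone (adjusted p = 0.2087), without control 2 (0.0665), without control 3 (0.0625) and with libraries scaled by totals (0.132). In the reverse direction Ccl24, the eosinophil chemokine eotaxin-2, had 3.63, 3.96 and 2.59 CPM in control, 17.7, 18.01 and 15.5 in LPS and 1.25, 0.868 and 0.776 in LPS plus BHB. Itgb3, the integrin β3 chain of osteoclasts and platelets, had means of 15.6, 24.97 and 3.71 CPM in the same order, and Mgll, monoacylglycerol lipase, 68.8, 136 and 26.0 CPM. The rule again nearly fixes that groups did not overlap between LPS plus BHB and control in 76 of the 79 genes (80.2% of all tested). Of the 79, 52 met the rule with control replicate 1 alone.

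A further 286 genes (2.04%) moved in the direction of LPS and at least 2-fold further, 197 upward and 89 downward. The median log2 fold changes against control were 4.17 for LPS plus BHB and 2.28 for LPS upward, and -2.87 and -1.36 downward. Kcna3, a voltage-gated potassium channel of leukocytes, had means of 1.18 ± 0.294 CPM in control, 5.26 ± 0.277 in LPS and 71.1 ± 5.91 in LPS plus BHB. Spata13, a guanine nucleotide exchange factor for RAC1 and CDC42, had 12.2 ± 1.03, 19.3 ± 1.80 and 243 ± 4.50 CPM. Hunk, Nipal1 and Ifitm7 had 1, 2 and 2 counts over the 3 control libraries, and their ratios of LPS plus BHB to control were 195 (exact 95% interval 34.5 to 7762), 347 (95.6 to 2873) and 332 (91.4 to 2748). Among the falls, Abhd6, a monoacylglycerol hydrolase, and Slc16a14, a monocarboxylate transporter family member, had log2 fold changes of -3.41 (SE 0.48) and -3.74 (SE 0.51). Snph, syntaphilin, had 47 counts over the controls and 0 in LPS plus BHB, at least 12.4-fold lower with the LPS plus BHB group set at 3 counts. By a rule that asks for large differences, all 286 separated LPS plus BHB from control without overlap (80.2% of all tested genes did), and 244 met the rule with control replicate 1 alone.

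Hypoxia response genes rose with LPS plus BHB, some of them without a rise in LPS alone. Of 22 tested genes of this list outside glycolysis, 19 were higher than control and 2 lower with LPS plus BHB, with a median log2 fold change of 1.71 against -0.06 over all genes tested, and with control replicate 1 alone 19 were higher and 1 lower. With LPS alone 15 were higher and 5 lower, median 1.07, and against LPS 17 were higher and 2 lower. Hif1a, the oxygen-regulated subunit of HIF-1, had 123, 141 and 134 CPM in control, 439, 437 and 441 in LPS and 1260.0, 1269 and 1251 in LPS plus BHB. Ddit4, a stress-induced inhibitor of mTORC1, rose from 2.61 ± 0.245 CPM to 86.1 ± 3.26 CPM, with 28.8 ± 1.65 CPM in LPS. Bnip3, a mitophagy receptor, had 18.7 ± 0.751, 25.8 ± 1.16 and 143 ± 12.3 CPM in control, LPS and LPS plus BHB, and 22.3% of its exons overlap an antisense gene. With Egln3 and Vegfa above, 10 of the 22 fell in the sets described: 1 higher only with LPS plus BHB, 3 on opposite sides of control and 6 further from control. Among those on opposite sides, named after their values were seen, Mxi1, a MYC antagonist, had means of 50.5 CPM in control, 7.56 in LPS and 99.4 in LPS plus BHB, and Pdk1, which restrains pyruvate entry into the tricarboxylic acid cycle, 12.6, 5.26 and 22.4 CPM.

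Glycolysis genes were also mostly higher. Of 21 tested, 17 were higher and 4 lower than control with LPS plus BHB, median log2 fold change 1.49, against 14 and 5 with LPS alone, median 0.53, and 17 higher and 1 lower in LPS plus BHB than in LPS. Slc16a3, the lactate exporter MCT4, had 44.6, 48.5 and 45.5 CPM in control, 177, 177 and 165 in LPS and 574, 569 and 528 in LPS plus BHB, with no overlap between groups. Pfkl, a phosphofructokinase subunit, rose from 47.4 ± 1.64 to 436 ± 23.6 CPM, and LPS alone gave 187 ± 6.93 CPM. Ldha, lactate dehydrogenase A, had a log2 fold change of 1.69 (SE 0.05) with LPS plus BHB and 0.14 (SE 0.04) with LPS, and 19.6% of its 31-base stretches occur in other genes.

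In LPS plus BHB against LPS, 14 of 23 genes of TGF-β and BMP signalling were higher and 4 lower, 11 and 2 of 16 of the cyclic AMP response, and 9 and 1 of 13 immediate early factors, where 26.4% of all tested genes were higher and 24.4% lower. For TGF-β and BMP signalling, 14 of 23 were higher and 6 lower than control with LPS plus BHB, against 9 and 10 with LPS. Skil, a SMAD corepressor, had 67.9 ± 1.52 CPM in control, 178 ± 6.34 in LPS and 552 ± 6.24 in LPS plus BHB. Acvrl1, the receptor ALK1, had 50.3 ± 1.84 CPM in control and 55.4 ± 3.92 in LPS plus BHB, with 7.68 ± 0.341 CPM in LPS; its value against control did not pass the test, with a log2 fold change of 0.14 (SE 0.06) and adjusted p = 0.0511. Of 16 cyclic AMP response genes, 11 were higher and 4 lower with LPS plus BHB against 7 and 8 with LPS, and 4 of them lay on opposite sides of control: Nr4a1, Vegfa, Thbs1, thrombospondin, and Pde4d, a cyclic AMP phosphodiesterase named only to complete this count. Thbs1 had means of 497 ± 15.1 CPM in control, 286 ± 11.2 in LPS and 887 ± 103 in LPS plus BHB. Nr4a3 rose in both, with log2 fold changes of 7.38 (SE 0.11) and 7.13 (SE 0.11). Of 13 immediate early factors, 5 were higher and 5 lower than control with LPS plus BHB (5 and 7 with libraries scaled by totals). Junb, an AP-1 subunit, had 142 ± 3.47, 444 ± 14.7 and 635 ± 9.55 CPM in control, LPS and LPS plus BHB, and Myc, higher with LPS, had 13.9 ± 2.75 CPM in control and 14.2 ± 1.51 in LPS plus BHB.

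**Figure D3:**
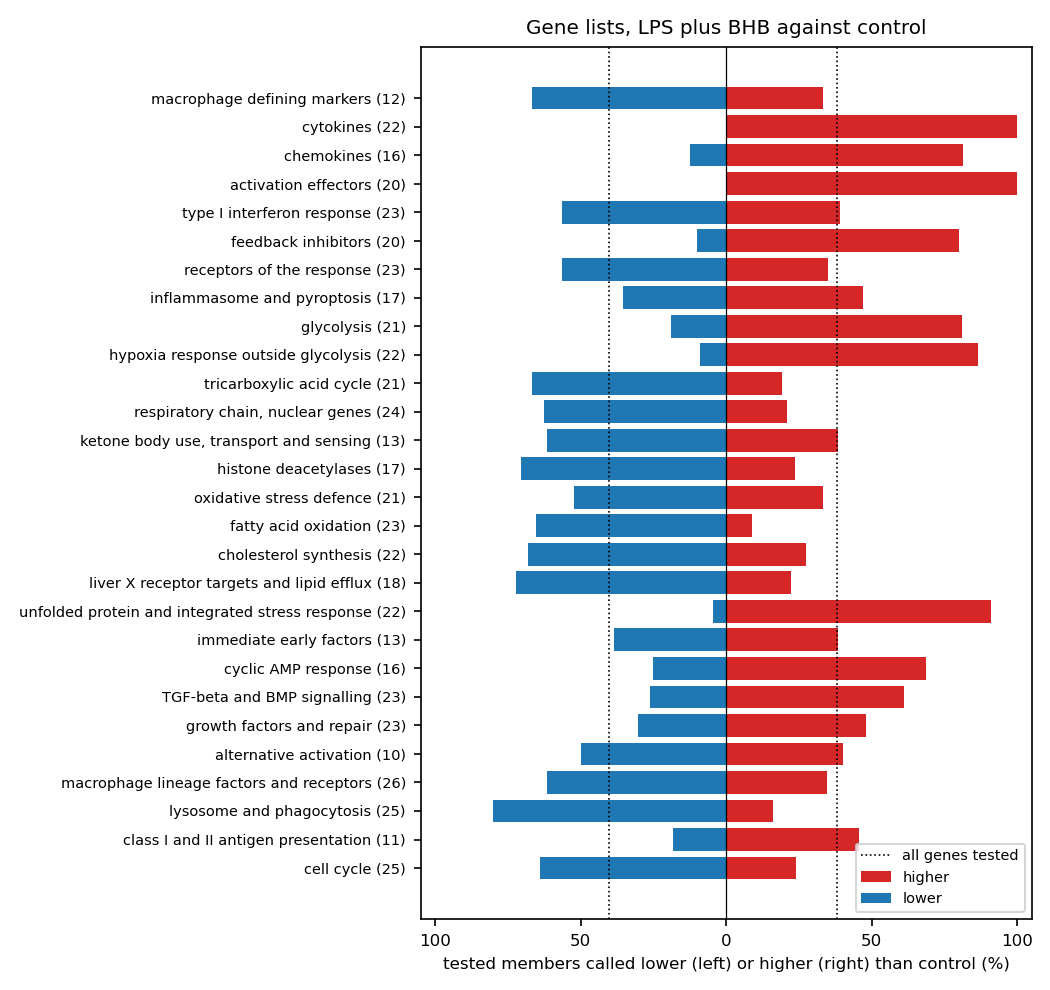
Percent of tested members of each gene list called higher (right) and lower (left) in LPS plus BHB against control, with dotted lines at the shares over all tested genes, 38.0% and 40.4%. Cytokines, effectors, the stress response, hypoxia and glycolysis lie to the right, and lysosome and fatty acid oxidation genes to the left.

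The strong inductions were checked against control replicate 1 alone, in which LPS-induced genes such as Il23a, Acod1 and Il12b had the fewest counts. Fitted with that library as the only control, 267 genes (1.9%) were called, at least 16-fold higher and at 5 CPM or more in LPS plus BHB. With all 3 controls 254 genes met the same limits, and 251 met them in both. Control 2 and 3 both lay above control 1 in 189 of the 267 (70.8%), against 35.5% of all tested genes, a share that choosing genes by control 1 favours. The genes chosen by control 1 summed to 2541, 3292 and 3342 CPM in control 1, 2 and 3, and to 122446 to 124729 CPM in LPS plus BHB. In LPS alone they summed to 106592 to 108625 CPM, so most of this rise was also present there. Their median level in control 1, 2 and 3, as a percent of that in LPS plus BHB, was 2.01, 2.38 and 2.58, with highest values of 6.21, 12.6 and 11.3. Each control library thus lay below the LPS plus BHB mean in every one of these genes. The 16-fold limit fixes this for control 1, and choosing genes by that limit favours it for control 2 and 3.

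The size of the largest inductions rested on the choice of control. The 10 genes given here were picked by their ratio to control 1, which favours genes with few counts there. A larger ratio to control 1 than to all 3 controls was thus partly built in. Il23a had 1 count in control 1 and 247 and 268 in control 2 and 3, and its ratio of LPS plus BHB to control 1 was 51952 (exact 95% interval 9324 to 2052020), against a fitted fold of 310 with all 3 controls. Acod1, which makes itaconate, had 24 counts in control 1 and 1739 and 1808 in the others, and ratios of 11844 and 247. Il1a, the IL-1α gene, had 17, 912 and 1043 counts, and ratios of 10152 and 271. Il12b was at least 7144-fold above control 1 and Nos2, the inducible nitric oxide synthase, at least 2736-fold, against fitted folds of 151 and 206. The same held for Tnfsf15 (6927, interval 2370 to 33590, against 222), Cxcl1 (4062 against 207), Chac1 (3820, interval 685 to 150892, against 172), Shisa3 (at least 3343 against 298) and Il6 (2195 against 189). All 10 genes were at least 16-fold higher under both choices, which their selection fixes for control 1. By their means, LPS alone lay above LPS plus BHB for Il12b (1164 against 602 CPM), Nos2 (493 against 231), Chac1 (145 against 108), Cxcl1 (4919 against 4461) and Il6 (311 against 247). It lay below for Il23a, Acod1, Il1a, Tnfsf15 and Shisa3.

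**Figure D4:**
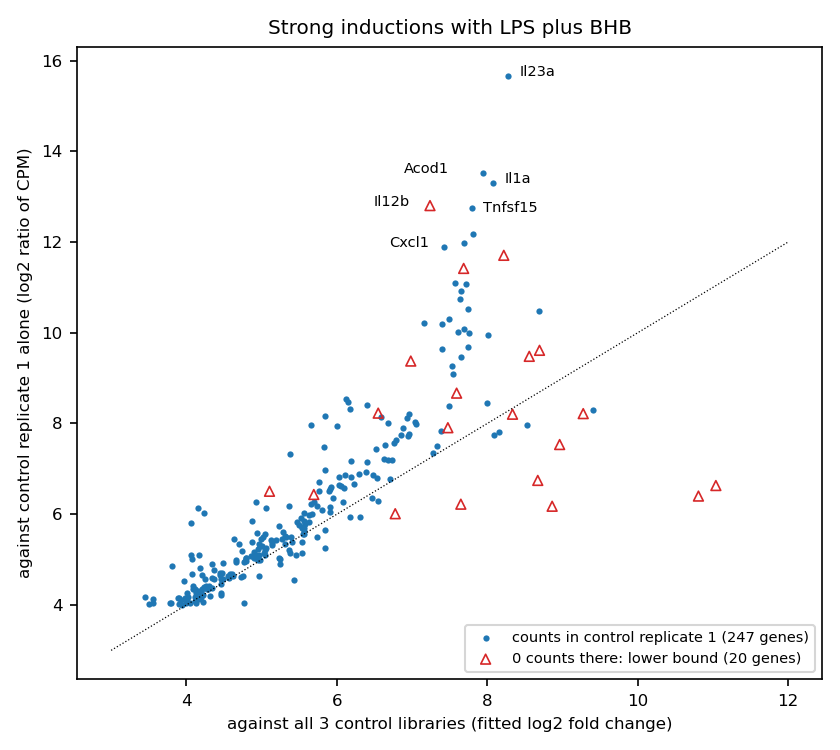
For each of the 267 strong inductions, the fitted log2 fold change against all 3 controls (x) and the log2 ratio of LPS plus BHB to control replicate 1 (y). The 20 genes with 0 counts in control 1 are triangles at a lower bound, and Il23a, Acod1, Il1a and Il12b lie farthest above the line of equal values.

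All 22 tested cytokine genes were higher than control with LPS plus BHB, and all 22 with LPS, with medians of 6.95 and 5.65, and 21 were called with control replicate 1 alone. Il23a had 0.0282, 6.61 and 7.39 CPM in control, 172, 184 and 163 in LPS and 1427, 1407 and 1557 in LPS plus BHB, a log2 difference of 3.08 (SE 0.46) from LPS. Lif, a cytokine of the IL-6 family, rose to 186 ± 11.7 CPM from 0.859 ± 0.711 CPM in control, with 27.9 ± 1.19 CPM in LPS. Il15, which sustains natural killer and memory T cells, rose less with LPS plus BHB (89.2 ± 5.28 CPM) than with LPS (213 ± 7.17 CPM), from 18.9 ± 1.08 CPM in control. Il1a had means of 2068 ± 64.1 CPM in LPS and 4859 ± 71.9 CPM in LPS plus BHB; that difference, 1.23 on the log2 scale, was not called with 9 libraries (adjusted p = 0.22) and was called with the 6 treated libraries only (7.911e-15), a fit added after the data were seen. Il12b had 1164 ± 28.9 CPM in LPS and 602 ± 121 CPM in LPS plus BHB, with adjusted p = 0.12 and 0.007149 in the same fits. Tnf had 0 counts in every library, as did Oas1a and Psmb9 of other lists. With the counter and gene models unknown, a silent gene and reads not assigned to its symbol cannot be told apart. The 0 is therefore no measure of Tnf expression.

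Of 16 chemokine genes, 13 were higher and 2 lower than control with LPS plus BHB, against 14 and 2 with LPS. Cxcl1, a neutrophil chemokine, reached 4461 ± 109 CPM from 21.5 ± 17.8 CPM in control, with a mean of 4919 CPM in LPS. Ccl22, a ligand of CCR4, reached 43.2 ± 3.81 CPM from 0.628 ± 0.334 CPM in control, with 93.9 ± 7.44 CPM in LPS. All 20 activation effectors were higher with LPS plus BHB and 19 with LPS. Nos2 had 231 ± 43.9 CPM in LPS plus BHB against 493 ± 15.4 in LPS, while Ncf1, the p47phox subunit of the NADPH oxidase, had 1061 ± 27.3 against 458 ± 13.8 CPM and 307 ± 8.18 CPM in control. Acod1 reached 8002 ± 213 CPM in LPS plus BHB, with a mean of 5653 CPM in LPS.

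Among receptors of the response, 8 of 23 were higher and 13 lower than control with LPS plus BHB, beside 38.0% and 40.4% of all tested genes. With LPS alone 6 were higher and 12 lower. In LPS plus BHB 12 were higher and 5 lower than in LPS, beside 26.4% and 24.4%. Cd14, the LPS co-receptor, had 506, 551 and 532 CPM in control, 1712, 1691 and 1550.4 in LPS and 5921, 5515 and 5859 in LPS plus BHB, with no overlap between groups. Tlr2, which detects bacterial lipopeptides, rose by 4.30 (SE 0.06) with LPS plus BHB and by 3.11 (SE 0.06) with LPS. Il6ra, the IL-6 receptor chain, fell by 5.12 (SE 0.09) with LPS plus BHB, to a mean of 3.91 CPM, with 4.03 CPM in LPS. Of 20 feedback inhibitors, 16 were higher and 2 lower than control, among them Nfkbia, which holds NF-κB in the cytoplasm, with 60.6 ± 4.88 CPM in control, 1298 ± 40.7 in LPS and 1894 ± 106 in LPS plus BHB, and Irak3, an inhibitor of the IRAK kinases, with 30.3 ± 1.97, 130.5 ± 4.21 and 298 ± 10.6 CPM.

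Of 23 type I interferon response genes, 9 were higher and 13 lower than control with LPS plus BHB, beside 38.0% and 40.4% of all tested genes, and 10 were higher and 10 lower with LPS, beside 38.4% and 41.4%. The higher share was near that of all genes in both. Oasl1 and Ifih1, RNA-sensing genes of the antiviral response, rose by 5.56 (SE 0.07) and 4.61 (SE 0.06) on the log2 scale. Their means were 1531 and 1305 CPM in LPS and 1606 and 1295 CPM in LPS plus BHB. Stat2, a subunit of the interferon-stimulated transcription factor ISGF3, had 75.6 ± 5.13 CPM in control, 211 ± 0.771 in LPS and 335 ± 17.5 in LPS plus BHB. Of 17 inflammasome genes, 8 were higher and 6 lower than control, a direction that turned to 8 and 9 with libraries scaled by totals, and 12 were higher and 3 lower than with LPS. Nlrp3, a sensor that assembles the inflammasome, had 66.6 ± 5.49 CPM in control, 1423 ± 5.86 in LPS and 1161 ± 73.3 in LPS plus BHB. Casp1, which cleaves IL-1β and gasdermin D, had 65.1 ± 0.977 CPM in control and 63.3 ± 3.35 in LPS plus BHB and did not pass the test, with a log2 fold change of -0.04 (SE 0.06) and adjusted p = 0.511. It was higher than control with LPS, at 157 ± 11.6 CPM. Mefv, pyrin, rose by 4.34 (SE 0.08) with LPS plus BHB and 2.75 (SE 0.08) with LPS.

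Of the tricarboxylic acid cycle, the respiratory chain and fatty acid oxidation, more genes were called lower than higher against control. The same held with LPS alone, at 6 higher and 12 lower, 6 and 10, and 2 and 17 in that order. Genes of ketone body use were mixed. Of 13 genes of ketone body use, transport and sensing, 5 were higher and 8 lower, median -1.01, beside 38.0% and 40.4% of all tested genes. Their summed level was 612 to 619.955 CPM in control and 1062 to 1086 CPM in LPS plus BHB, where the transporter gene Slc16a3 was the largest part. Hcar2, the BHB receptor, named after its values were seen, had 0.310, 2.20 and 2.40 CPM in control, 157, 172 and 182 in LPS and 320.2, 306 and 341 in LPS plus BHB, a log2 fold change of 7.61 (SE 0.32). Its LPS plus BHB libraries lay above all others. Oxct1, the enzyme that commits ketone bodies to oxidation, had 227, 227 and 224 CPM in control, 46.9, 44.6 and 47.7 in LPS and 32.2, 30.3 and 37.6 in LPS plus BHB, a log2 fold change of -2.76 (SE 0.06). Of 17 histone deacetylases, 4 were higher and 12 lower than control with LPS plus BHB, against 5 and 11 with LPS alone. Hdac5 had 158 ± 1.70 CPM in control, a mean of 22.9 CPM in LPS and 38.1 ± 5.44 CPM in LPS plus BHB. The sirtuin gene Sirt1 was higher than control by 1.88 (SE 0.07), with means of 111 CPM in LPS and 94.7 CPM in LPS plus BHB. Of 21 genes on the tricarboxylic acid cycle list, 4 were higher and 14 lower, median -0.48. Their summed level overlapped between groups, at 2122 to 2179 CPM in control and 2108 to 2166 CPM in LPS plus BHB. Cs, citrate synthase, rose by 2.02 (SE 0.05). Idh1, which fell by 3.29 (SE 0.05), is on this list but encodes the cytosolic and peroxisomal isocitrate dehydrogenase, which is outside the cycle itself. Nuclear genes of the respiratory chain counted 5 higher and 15 lower of 24, median -0.23. Their sums also overlapped, at 2289 to 2374 CPM in control and 2199 to 2315 CPM in LPS plus BHB. Fatty acid oxidation counted 2 higher and 15 lower of 23, median -0.61, and its sum fell from 1323 to 1365 CPM in control to 867 to 909 CPM. Cpt1a, the gate of fatty acid entry into mitochondria, had 324 ± 6.65 CPM in control, 93.9 ± 10.1 in LPS and 223 ± 7.44 in LPS plus BHB.

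Lipid genes were mostly lower than control and stress response genes mostly higher. Of 22 cholesterol synthesis genes, 6 were higher and 15 lower than control, against 5 and 14 with LPS alone. Of 18 liver X receptor targets 4 were higher and 13 lower, against 5 and 12 with LPS alone. The sterol exporter gene Abcg1 fell from 649 ± 25.5 to 193 ± 9.25 CPM, with a mean of 213 CPM in LPS. Of 21 oxidative stress genes 7 were higher and 11 lower, against 8 and 9 with LPS alone, beside 38.0% and 40.4% of all tested genes with LPS plus BHB. The unfolded protein and integrated stress response counted 20 higher and 1 lower of 22, median 2.40, against 21 and 1 with LPS, and 1 higher and 15 lower in LPS plus BHB than in LPS. Ern1, the sensor IRE1α, had 77.3 ± 0.447 CPM in control, 208 ± 8.92 in LPS and 84.2 ± 8.83 in LPS plus BHB, and its value against control did not pass the test, with a log2 fold change of 0.12 (SE 0.06) and adjusted p = 0.0687. Herpud1, a partner of endoplasmic reticulum-associated degradation, rose by 3.86 (SE 0.05) with LPS plus BHB and 4.43 (SE 0.05) with LPS.

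Macrophage identity, lysosome and cell cycle genes were more often lower than higher. Of 26 lineage factors and receptors, 9 were higher and 16 lower than control, beside 38.0% and 40.4% of all tested genes. Of 25 lysosome and phagocytosis genes 4 were higher and 20 lower, median -1.02. With LPS alone the counts were 8 and 17 for the lineage list and 2 and 21 for the lysosome list. Cebpa, a myeloid lineage factor, fell from 309, 279 and 286 CPM in control to 57.5, 56.8 and 60.1 CPM, and LPS alone gave 17.7, 18.1 and 21.9 CPM. Fcgr1, the high-affinity IgG receptor, had 161 ± 16.3, 1.78 ± 0.294 and 3.68 ± 0.195 CPM in control, LPS and LPS plus BHB. Ctsl, cathepsin L, was among the 4 lysosome genes that rose, by 1.02 (SE 0.05), with 26.9% of its exons overlapping an antisense gene. Of 25 cell cycle genes 6 were higher and 16 lower, while their summed level was 611 to 686 CPM in control and 1819 to 1926 CPM in LPS plus BHB. Cdkn1a, the inhibitor p21, and Mki67, the proliferation marker Ki-67 named after its values were seen, made up most of the latter sum. Cdkn1a rose from 107 ± 5.31 to 993 ± 50.7 CPM and Mki67 from 39.8 ± 8.24 to 549 ± 33.2 CPM, with 641 ± 13.0 CPM in LPS. Of 11 antigen presentation genes 5 were higher and 2 lower, which became 2 and 3 with libraries scaled by totals. Growth factor and repair genes counted 11 higher and 7 lower of 23, against 11 and 10 with LPS alone. Alternative activation genes counted 4 higher and 5 lower of 10, and again 4 and 5 with LPS alone, beside 38.0% and 40.4% of all tested genes. Pparg, a lipid-sensing nuclear receptor, had a log2 fold change of -4.54 (SE 0.14), with means of 3.47 CPM in LPS and 1.83 CPM in LPS plus BHB.

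Among markers of other cells, neutrophil markers summed to 19.1 to 20.2 CPM in control and 5.70 to 9.22 CPM in LPS plus BHB, with Mmp8 falling and S100a8 rising. Dendritic cell markers summed to 468 to 621 CPM in control and 376 to 480 CPM in LPS plus BHB, 3 higher and 3 lower of 6. Stromal and endothelial markers summed to 21.6 to 32.1 CPM in control and 148 to 178 CPM in LPS plus BHB, 3 higher and 1 lower of 10, with most of the sum from Pdgfrb, a platelet-derived growth factor receptor, at 3.54 ± 0.639 CPM in control, 98.5 ± 3.37 in LPS and 138 ± 11.5 in LPS plus BHB. Mast cell markers passing the filter, Kit and Hdc, summed to 0.40 to 0.86 CPM in control and 34.0 to 41.2 CPM in LPS plus BHB. The part of such cells in the results was not tested.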

How the data were processed

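RNA was extracted with Trizol per the labels' protocols and gene-level counts of 9 libraries were deposited by the authors. The submitters' processing notes name HISAT2 and mm10; the HISAT2 version, the counter, the gene models and the strandedness were not given in the sources used here, and reads of overlapping or antisense genes could not be told apart. The deposited counts were used unchanged. In R 4.3.3, genes were filtered with edgeR 4.0.16 filterByExpr (minimum count 10), which left 99.956% of counts, scaled by TMM and fitted with the robust quasi-likelihood model on group alone over all 9 libraries (6 residual degrees of freedom), with Benjamini-Hochberg adjustment over 14026 genes. Standard errors were derived from each fold change and its F statistic and are approximate. A pseudocount enters log2 fold changes of genes near 0, which are then no bounds. Ratios used Python 3.11.15 and SciPy 1.17.1, with exact conditional 95% intervals for 1 to 3 counts and a floor of 3 counts for 0. The fit was tested on simulated counts.

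The members and lists were chosen with earlier results of these data known, so list counts stand beside those of all genes tested. Named genes were the 8 largest rises and 8 falls among genes averaging 5 CPM or more over the 6 libraries, the 12 largest each way among genes changed only with LPS plus BHB and at 5 CPM or more in the higher group, the 6 largest each way among genes on opposite sides of and further from control, the 10 largest ratios to control 1 of at least 50 CPM, and per list the 2 smallest p against control and the 2 against LPS; a few of these are not reported here. Ifnar2, Cd14, Il1a and other list members came in by the last rule. Mxi1, Pdk1, Pde4d, Hcar2, Mki67 and the promoters of Egln3 and Vegfa were outside the rule and chosen after their values were seen. Coordinates and exon overlaps are from GENCODE M21 on GRCm38. The labels do not say whether replicate numbers pair the libraries. Correlations of same-numbered deviations were small, -0.017 to 0.039, while 6 of 9 libraries correlated best with their own number, so pairing was not settled. Replicate pairs all differed by more than sampling noise (chi-square over its degrees of freedom 3.17 to 11.2). Alternatives were DESeq2 1.42.0, library totals, no filter, control 1 alone, a replicate block, leaving out each library, and limits on the fold change.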

Additional observations from a re-analysis of the deposited data

How the results depend on the processing

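The counts of higher and lower genes against control, 5328 and 5662, were 5408 and 5440 with DESeq2, 5614 and 5947 without a filter, 4930 and 4932 with control replicate 1 alone, 5196 to 5450 and 5458 to 5750 when 1 library was left out, and 3265 and 3727 when a change of 1.5-fold itself was tested. Genes changed only with LPS plus BHB, 90 higher and 65 lower, became 92 to 121 and 65 to 82 with 1 library left out, 69 and 95 with library totals, which turned which direction held more, and 186 and 122 when LPS alone needed only to lie within 1.5-fold, called or not. Genes on opposite sides of control numbered 67 to 83 and those further from control 269 to 303 with 1 library left out. With a replicate block the counts were 5279 and 5629 against control, 92 and 59 changed only with LPS plus BHB, 78 on opposite sides and 281 further. Whether the replicate numbers pair the libraries was not settled, and 6 of 9 libraries correlated best with their own number. Of 6254 alternative values for 174 named genes, 6076 kept direction and call, 121 lost and 54 gained the call, and 3 reversed, all with libraries scaled by totals: Atp5b at -0.060, Csf2rb at -0.12 and Mcm4 at -0.13 on the log2 scale. Scaling was the cause by construction, since totals moved the median of all genes by -0.33. Against control the calls of Nr4a1, Clic5 and Pcsk1 were lost with control replicate 1 alone (adjusted p 0.2087, 0.1725 and 0.0953), and that against LPS of Nos2 with DESeq2 (0.4437); the cause was not tested.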
